A study of Danio rerio with 12 samples.

Results

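Messenger RNA was measured by sequencing in zebrafish embryos of the AB strain at 10 somites, and the comparison described here is the effect of morpholinos against pbx2 and pbx4 in embryos that lack functional prdm1. It uses 6 of the 12 libraries of the study. The 3 double libraries came from prdm1-/- embryos with pbx2/4 morpholinos, and the 3 prdm1 mutant libraries from prdm1-/- embryos with a control morpholino. The other 6 libraries, used beside them, came from prdm1+/+ embryos with the control morpholino (controls, n = 3) or with pbx2/4 morpholinos (pbx2/4 morphants, n = 3). The members of the comparison were chosen by the group words in the names of the count columns, and libraries were paired by the form of those names, which splits them into 3 sets of 4 libraries, called sets A, B and C here.

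Every embryo of the study carried a morpholino, injected at the 1 cell stage. RNA was isolated from single embryos and pooled by group after genotyping, so a library is a pool. The labels do not give the number of embryos in a pool, the mutant allele, the morpholino doses or the RNA step that each morpholino blocks. A morpholino lowers the protein made from an RNA and need not lower the RNA, and a knockdown can be partial. The design text speaks of 3 separate rounds of egg collection and injection, but the labels do not say whether a set of columns is a round. Total estimated counts were 9314959 to 17236848 in the 6 libraries. Of 38 identifiers of markers of 9 cell classes (muscle, presomitic mesoderm, notochord, neural cells, hatching gland, blood, endothelium, epidermis and neural crest), 37 had at least 1 CPM (normalised read counts) in each of these 6 libraries, which is the mixture a whole embryo holds.

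Pbx proteins are homeodomain transcription factors that bind DNA together with Hox, Meis and Pknox proteins and, in muscle precursors, beside the myogenic factor Myod. In zebrafish they are known for patterning the hindbrain, through the genes that define its segments (rhombomeres), and for the timely onset of fast muscle and heart muscle genes. Prdm1a is a zinc-finger repressor that slow muscle precursors need in order to adopt the slow fate. In its absence these cells switch on fast muscle genes. The embryos compared here therefore ask what depends on Pbx in an embryo whose slow muscle programme is already disturbed.

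The targeted genes were examined first. pbx2 (ENSDARG00000019717) stood at 63.6, 43.6 and 67.6 CPM in the prdm1 mutant libraries of sets A, B and C, and at 316, 232 and 280 CPM in the double libraries. All 3 double libraries lay above all 3 mutant libraries, and pbx2 RNA rose, with a log2 fold change of 2.24 (SE 0.08, adjusted p in edgeR = 1.5e-09). pbx4 (ENSDARG00000052150) read 361, 335 and 275 CPM in mutants and 494, 475 and 355 CPM in doubles, so that the groups overlap across sets while each set rose. Its log2 fold change was 0.44 (SE 0.05, adjusted p = 5.89e-05, 0.231 without the block). The RNA of both targets was thus higher, which says nothing of how much of either protein was lost.

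prdm1a (ENSDARG00000002445) RNA was present in the mutants at 144, 132 and 141 CPM and higher in doubles, at 239, 218 and 225 CPM. The groups did not overlap, and the log2 fold change was 0.71 (SE 0.06, adjusted p = 3.27e-06). Controls had 106, 94.8 and 113 CPM, and the effect of the same morpholinos in prdm1+/+ embryos was 0.22 (adjusted p = 0.0172). Because the allele is not named, this RNA does not check the genotype. Its paralog prdm1b has a pair of identifiers. ENSDARG00000053592 went from 2.93 ± 0.475 CPM (SD, n = 3) to 7.02 ± 2.55 CPM (log2 change of 1.24, SE 0.25, adjusted p = 0.00404, 0.0766 without the block), and ENSDARG00000078168 was not called (log2 fold change -0.71, adjusted p = 0.115).

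Over the 18117 genes tested, 2935 (16.2%) were called at an adjusted p under 0.05 with the set as a block. Of these 1308 (7.22% of genes tested) were higher in doubles and 1627 (8.98%) lower. Most differences were small. Among called genes, 203 rose and 220 fell by 1 or more on the log2 scale, and 20 rose and 6 fell by 3 or more. The median log2 fold change of all genes tested was 0.01. Without the block the same test called 247 genes (1.36%), 100 higher (0.552%) and 147 lower (0.811%), all of them among the 2935. Counts of list members called without the block are to be read beside these smaller shares. In a principal component analysis of the 6 libraries, component 1 (39.5% of variance) separated the set B pair and component 2 (27.6%) separated doubles from mutants. Left out singly, the mutant or double library of set A gave 1760 or 1674 calls, and the set C mutant library 1852. Most genes named below were picked as called, so a gap between the libraries of the groups is not independent of that choice.

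**Figure D1:**
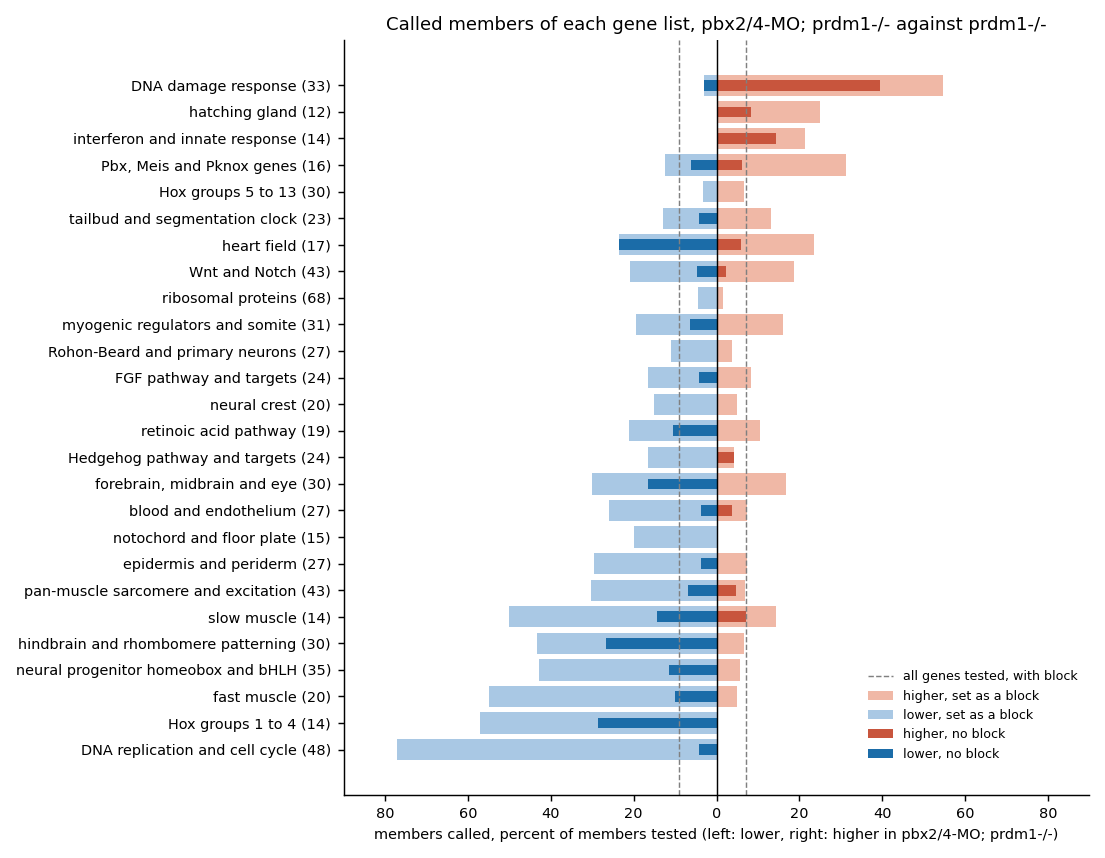
Bars give, for each gene list, the percent of its tested members (number in brackets) that were called lower (left) or higher (right) in pbx2/4-MO; prdm1-/- than in prdm1-/- libraries, in pale colour with the set as a block and in dark colour without it, and dashed lines mark all genes tested, at 8.98% lower and 7.22% higher. The dashed lines are for the fit with the block, and without it the shares were 0.811% lower and 0.552% higher. The DNA damage response list stands out on the right with 18 of 33 members, and the cell cycle, Hox groups 1 to 4, fast muscle, slow muscle and hindbrain lists on the left with 37 of 48, 8 of 14, 11 of 20, 7 of 14 and 13 of 30 members.

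The gene with the deepest fall among named genes was egr2b (ENSDARG00000042826, also known as krox20), which marks and specifies rhombomeres 3 and 5. It had 60.8, 51.0 and 55.9 CPM in prdm1 mutants and 3.22, 0.105 and 1.83 CPM in doubles. Every double library was far below every mutant library, and the fitted level was 31.3-fold lower (log2 fold change -4.97, SE 0.31, adjusted p = 5.11e-07). mafba (ENSDARG00000017121), the valentino gene needed for rhombomeres 5 and 6, fell from 59.9, 62.8 and 59.9 CPM to 17, 7.65 and 13.8 CPM (log2 change of -2.24, SE 0.20, adjusted p = 1.01e-05). Its mutant values were nearly equal and its doubles spread from 7.65 to 17 CPM. egr2a, a paralog of egr2b, and gbx1, a homeobox gene of the hindbrain, were picked after their values were seen. They fell by 1.41 and 1.51 on the log2 scale (adjusted p = 0.00249 and 0.000302).

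In the list of hindbrain and rhombomere genes 13 of 30 tested members fell and 2 rose, beside 8.98% and 7.22% of all genes. The median of its log2 fold changes was -0.27. Without the block 8 fell and 0 rose, beside 0.811% and 0.552% of all genes. The receptor genes epha4a, epha4b and ephb4a, of the Eph family that keeps rhombomeres apart, fell by 0.39, 0.84 and 0.46 on the log2 scale. Their adjusted p-values were 9.83e-05, 0.000349 and 0.000557, and 0.267, 0.138 and 0.146 without the block, and the last 2 of these genes were picked after their values were seen. The 2 that rose were irx1b (log2 fold change 0.42, adjusted p = 0.000775, 0.0765 without the block) and rarga, a retinoic acid receptor (0.33, adjusted p = 0.00447, 0.31 without the block). As the RNA came from whole embryos, fewer cells of a type and less RNA per cell cannot be told apart, here and in all results that follow.

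Hox genes of the anterior groups, which give rhombomeres their identity, fell as well. In Hox groups 1 to 4, 8 of 14 tested members were lower and 0 higher, beside 8.98% and 7.22% of all genes. Without the block 4 were lower, beside 0.811% of all genes. The median log2 fold change was -0.60, beside 0.01 over all genes tested, and every one of the 14 had a log2 fold change below 0. hoxa3a (ENSDARG00000036231) had 50.3, 55.2 and 54.7 CPM in mutants against 22.0, 28.4 and 22.1 CPM in doubles. The groups were well apart, with a log2 fold change of -1.16 (SE 0.09, adjusted p = 2.35e-06). hoxb2a fell by 1.28 (SE 0.15, adjusted p = 9.8e-05) and hoxa2b by 1.02 (SE 0.12, adjusted p = 0.000118). hoxb1a, the gene of rhombomere 4, fell by 0.76 (adjusted p = 0.000142, 0.168 without the block), with 37.2, 26.6 and 44.0 CPM in mutants and 22.1, 18.6 and 22.7 CPM in doubles.

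The posterior Hox groups 5 to 13, expressed along the trunk and tail, gave 2 higher and 1 lower of 30 tested members, beside 7.22% and 8.98% of all genes. Their median log2 fold change was 0.00, and none was called without the block. hoxd9a rose by 0.63 (SE 0.08, adjusted p = 0.000247, 0.0576 without the block). The calls of hoxb9a and hoxb10a were lost when single libraries were left out, and with them the counts became 1 to 2 higher and 0 to 2 lower.

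Genes of enzymes that degrade or make retinoic acid were among those that fell. cyp26b1 (ENSDARG00000077121) and cyp26c1 (ENSDARG00000056029) encode enzymes that degrade retinoic acid, and aldh1a2 (ENSDARG00000053493) the enzyme that makes it in the somites. cyp26b1 had 23.9, 16.6 and 20.5 CPM in mutants and 2.79, 1.15 and 3.20 CPM in doubles, which were 8.17-fold lower in the fit (log2 fold change -3.03, SE 0.19, adjusted p = 5.09e-07). cyp26c1 fell from 66.7, 92.5 and 62.0 CPM to 30.1, 27.6 and 28.8 CPM (log2 change of -1.32, SE 0.12, adjusted p = 7.61e-06). For both genes each double library was below every mutant library, which is not independent of their choice as called genes. aldh1a2 fell by 0.90 (SE 0.07, adjusted p = 3.73e-06, 0.164 without the block), and the receptor gene rarab by 0.33 (adjusted p = 0.00106, 0.169 without the block).

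Of the 19 tested members of the retinoic acid list 4 fell, 2 rose and 13 were not called, where 8.98% of all genes fell and 7.22% rose. The median log2 fold change of the list was -0.16. Without the block 2 fell and 0 rose, beside 0.811% and 0.552% of all genes. With 1 library left out 1 to 2 rose. Among the partners of Pbx, meis3, whose protein forms complexes with Pbx and Hox in the hindbrain, fell from 141, 128 and 144 CPM to 83.4, 90.6 and 86.7 CPM, by 0.66 (SE 0.06, adjusted p = 1.78e-05). pknox1.2 rose by 0.85 (SE 0.17, adjusted p = 0.00395, 0.148 without the block). In all 5 of 16 tested identifiers of Pbx, Meis, Pknox and other TALE genes rose and 2 fell, where 7.22% of all genes rose and 8.98% fell. Without the block 1 rose and 1 fell, beside 0.552% and 0.811% of all genes. Without the double or the mutant library of set C, 3 rose. Those 5 include both targets and a pair of identifiers of pknox1.1.

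**Figure D2:**
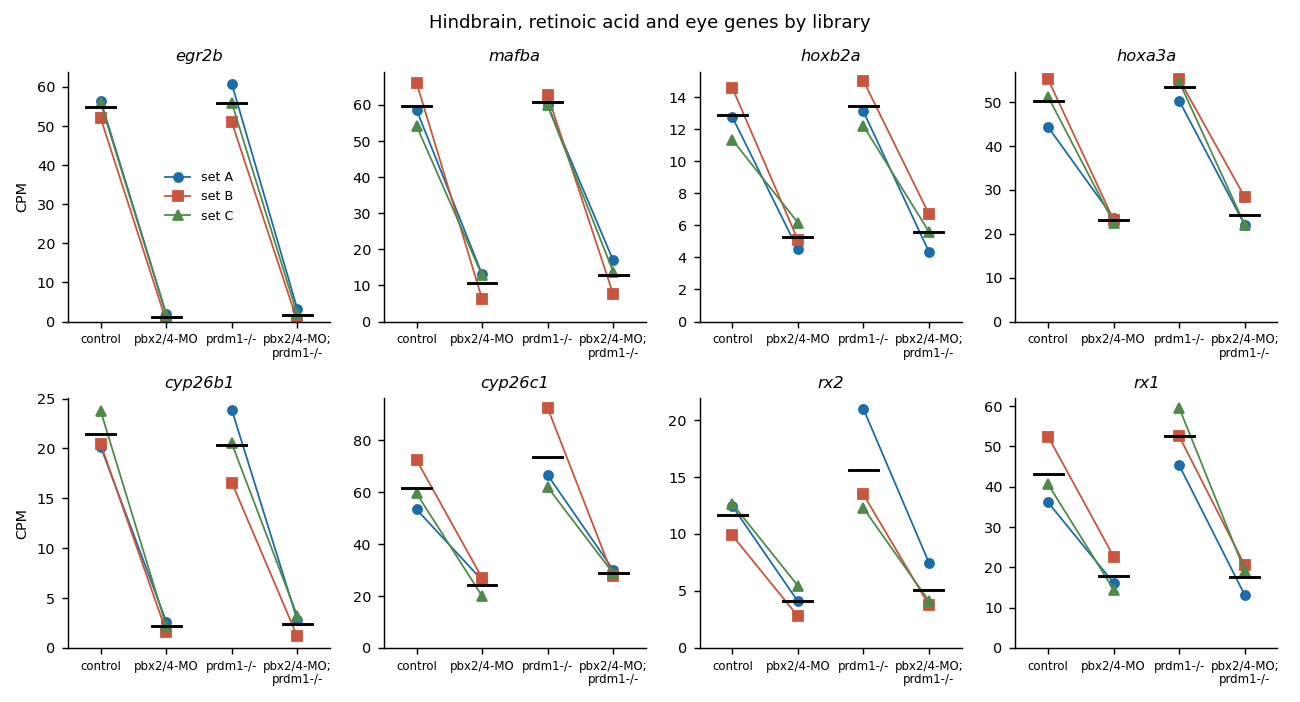
Normalised read counts (CPM) of 8 genes in all 12 libraries, with points for libraries, colours and shapes for the column-name sets, lines joining libraries of a set within a prdm1 genotype, and black bars for the mean of 3 libraries. In each panel the 3 double libraries lie below the 3 prdm1-/- libraries, as the pbx2/4-MO libraries do below the controls, with egr2b at 3.22 CPM or less in doubles and cyp26b1 at 3.20 CPM or less.

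The retinal homeobox genes of the eye field differed in direction. rx1 (ENSDARG00000071684), needed for retinal progenitors, had 45.3, 52.5 and 59.6 CPM in mutants and 13.2, 20.5 and 19.2 CPM in doubles, with a log2 fold change of -1.59 (SE 0.13, adjusted p = 4.21e-06). rx2, its paralog, had 21, 13.5 and 12.3 CPM in mutants and 7.49, 3.77 and 4.12 CPM in doubles, with a log2 fold change of -1.62 (SE 0.21, adjusted p = 0.000193). For both genes every double library was below every mutant library, which is not independent of their choice as called genes. rx3, their paralog of the early eye field, had 23.6, 12.1 and 11 CPM in mutants and 26.7, 18.3 and 22 CPM in doubles, with a log2 fold change of 0.56 (SE 0.18, adjusted p = 0.0475, 0.584 without the block). Its groups overlapped, and its call was lost in 5 of 6 fits with 1 library left out. six3b and six7, homeobox genes of the eye and forebrain, rose by 0.29 and 0.67 (adjusted p = 0.0214 and 0.0247, and 0.283 and 0.382 without the block). mab21l2, needed for the growth of the optic cup, rose from 53.3, 63.2 and 50.5 CPM to 77.9, 82.7 and 80.6 CPM (log2 fold change 0.54, adjusted p = 0.000325, 0.0844 without the block). lhx9, a LIM homeobox gene, rose by 0.68 (adjusted p = 0.00256, 0.355 without the block). The list of forebrain, midbrain and eye genes had 9 lower and 5 higher of 30 tested, beside 8.98% and 7.22% of all genes. Without the block 5 of the list fell and 0 rose, beside 0.811% and 0.552% of all genes. With 1 library left out the higher ones ranged from 2 (without the set C mutant library) to 6.

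In the list of neural progenitor genes 15 of 35 tested members fell, 2 rose and 18 were not called, with a median log2 fold change of -0.26. Without the block 4 fell and 0 rose, beside 0.811% and 0.552% of all genes. gsx1, a homeobox gene of the dorsal neural tube, fell from 2.97, 6.57 and 3.65 CPM to 0.523, 0.524 and 0.801 CPM (log2 change of -2.67, SE 0.29, adjusted p = 4.47e-05). dbx1b, of progenitors in the middle of the neural tube, fell by 1.32 (SE 0.14, adjusted p = 4.07e-05), pax6a by 0.88 (SE 0.08, adjusted p = 5.6e-06) and irx3a by 0.70 (SE 0.06, adjusted p = 1.06e-05). The broad progenitor gene sox19a fell less, by 0.29 (adjusted p = 0.00134, 0.152 without the block). wnt1, the signal of the midbrain-hindbrain boundary and dorsal neural tube, fell by 1.18 (SE 0.17, adjusted p = 0.000385). The calls of the 2 that rose, her6 and msxd, were lost in 5 of 6 fits with 1 library left out. Among neuronal genes elavl3, a marker of new neurons, fell by 0.28 (adjusted p = 0.0036, 0.704 without the block). The list of Rohon-Beard sensory neurons and primary neurons had 3 lower and 1 higher of 27 tested, where 8.98% of all genes fell and 7.22% rose. Without the block 0 of this list fell and 0 rose. Without the set A mutant library 1 was lower, and with any 1 library left out 0 were higher.

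Muscle was examined by fibre type. The 5 tested fast myosin heavy chain genes are near-identical copies that can share reads, so their counts were summed. The sum was 20.6, 20.4 and 37.1 CPM in prdm1 mutants and 4.35, 9.12 and 11.8 CPM in doubles, without overlap. Its log2 fold change was -1.64 (SE 0.20, adjusted p = 0.000104), and it fell by 1.16 to 2.23 within the 3 sets. In controls and pbx2/4 morphants the means were 0.612 and 0.579 CPM. The fast myosin heavy chain RNA seen in the mutants was thus reduced in doubles and still stood at 8.44 ± 3.79 CPM (SD, n = 3).

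Other fast muscle genes gave the same direction. mylz2 (ENSDARG00000053254), a fast myosin light chain, had 18.0, 21.0 and 27.3 CPM in mutants and 3.57, 10.8 and 11.3 CPM in doubles (log2 fold change -1.42, SE 0.19, adjusted p = 0.000276, 0.0694 without the block). atp2a1 (ENSDARG00000020574), the calcium pump of fast fibres, had 41.2, 51.3 and 47.4 CPM against 12.6, 17.7 and 24.0 CPM (log2 change of -1.37, SE 0.18, adjusted p = 0.000211). srl, a calcium-binding protein of the sarcoplasmic reticulum, had 17.4, 20 and 23.6 CPM against 6.18, 7.76 and 6.70 CPM (log2 change of -1.58, SE 0.17, adjusted p = 4.07e-05). The doubles lay below the mutants for each of the 3, a gap that is not independent of their choice as called genes. myl1, another light chain, fell by 0.78 (adjusted p = 0.000965, 0.212 without the block).

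Of 20 tested members of the fast muscle list 11 fell and 1 rose, where 8.98% of all genes fell and 7.22% rose. The median log2 fold change of the list was -0.57. Without the block 2 fell and 0 rose, beside 0.811% and 0.552% of all genes. The 1 that rose was tnni2b.1, a fast troponin I (log2 fold change 0.39, adjusted p = 0.0113, 0.538 without the block), whose call was lost without the set C double library or the set B mutant library. The summed level of the list was 327 to 442 CPM in mutants and 247 to 347 CPM in doubles, ranges that overlap. Of the 30 identifiers matched to the list, 10 did not pass the filter on low counts.

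Slow myosin heavy chain RNA, lower in CPM in prdm1 mutants than in controls (a difference not tested), was lower again in doubles. The sum of smyhc1, smyhc2 and smyhc3, the slow myosin heavy chains, averaged 559 CPM in controls. It was 171, 82.6 and 169 CPM in prdm1 mutants and 46.2, 71.3 and 62.9 CPM in doubles. Doubles were below mutants in every set, and the gap was narrow in set B. Its log2 fold change was -1.19 (SE 0.21, adjusted p = 0.00152), and it fell by 1.88 in the set where it fell most and by 0.21 in set B. Without set A the fold change was -0.87 (adjusted p = 0.0537), which is not called. With single libraries left out it ranged from -1.50 without the set B double library to -0.93 without the set A double library, called each time.

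The slow muscle list had 7 lower, 2 higher and 5 not called of 14 tested members, where 8.98% of all genes fell and 7.22% rose. The median log2 fold change of the list was -0.93. Without the block 2 fell and 1 rose, beside 0.811% and 0.552% of all genes. Without the set A double library or the set C mutant library 1 of the 2 still rose. Several of those that fell are also cardiac genes. tnni1b, a troponin I, fell from 1.29, 2.34 and 1.46 CPM to 0.174, 0.21 and 0.286 CPM, by 2.78 (SE 0.47, adjusted p = 0.00121). The double libraries held only 2, 2 and 5 counts of it, and DESeq2 gave no adjusted p. The identifier named MYH7B (1 of 3), a slow-type myosin heavy chain, went the other way. It had 6.51, 6.79 and 4.58 CPM in mutants and 14.1, 17.9 and 9.96 CPM in doubles. Its log2 fold change was 1.22 (SE 0.16, adjusted p = 0.000211). Identifiers with related names, MYH7B (3 of 3) and myh7bb, fell, with log2 fold changes of -1.252 and -1.196. Their adjusted p-values were 0.00253 and 0.00597, and 0.0505 and 0.128 without the block. Both had fractional counts and may share reads. mybpc1 also rose, by 0.76 (adjusted p in edgeR = 0.00902, 0.67 without the block).

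Genes shared by all fibres fell in part. acta1b (ENSDARG00000055618), a skeletal alpha-actin, had 47.9, 51.7 and 54.2 CPM in mutants and 14.7, 22.1 and 21.3 CPM in doubles (log2 fold change -1.41, SE 0.14, adjusted p = 2.54e-05). ttna, the giant spring protein titin, had 164, 93.6 and 153 CPM against 66.5, 50.9 and 55.6 CPM (log2 change of -1.23, SE 0.10, adjusted p = 5.43e-06). chrna1, the alpha subunit of the muscle acetylcholine receptor, fell by 1.74 (SE 0.20, adjusted p = 8.78e-05). All 3 were lower in each double library than in any mutant library, a gap that is not independent of their choice as called genes.

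Members that rose were musk, the receptor kinase that organises neuromuscular synapses, and unc45b, a myosin chaperone. musk rose by 0.72 (SE 0.11, adjusted p = 0.000457), with 12.4, 13.8 and 12.8 CPM against 21.9, 20.9 and 21.1 CPM. unc45b rose by 0.53 (SE 0.06, adjusted p = 3.96e-05), with 207, 242 and 223 CPM against 315, 332 and 325 CPM. Of the 43 tested members of this pan-muscle list 13 fell and 3 rose (3 and 2 without the block). Of all genes 8.98% fell and 7.22% rose (0.811% and 0.552% without the block). The median log2 fold change of the list was -0.27. Without the set A double library 8 fell, and the call of the third that rose, ryr3, was lost in 4 of 6 fits with 1 library left out.

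The myogenic regulators split. myod1 (ENSDARG00000030110), which commits cells to muscle, had 81.6, 96.6 and 63.1 CPM in mutants and 137, 132 and 116 CPM in doubles, a rise of 0.70 (SE 0.10, adjusted p = 0.000427, 0.098 without the block). myog (ENSDARG00000009438), which acts later and drives differentiation, had 35.1, 41.3 and 44.1 CPM against 18.6, 19.0 and 23.5 CPM, a fall of 0.98 (SE 0.16, adjusted p = 0.000822). For both genes the groups did not overlap, which is not independent of their choice as called genes. myf5, the other early regulator, was not called (log2 fold change -0.05, adjusted p = 0.74) and was picked after its values were seen.

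lbx1b, a homeobox gene of migrating muscle precursors and of the neural tube, fell by 1.57 (SE 0.19, adjusted p = 0.00012). Of 31 tested members of the list of myogenic and somite genes 5 rose and 6 fell (0 and 2 without the block). Of all genes 7.22% rose and 8.98% fell (0.552% and 0.811% without the block). The median log2 fold change of the list was 0.04. With 1 library left out the counts were 2 to 5 higher, lowest without the set A double library, and 3 to 5 lower, lowest without either set C library. The tailbud and segmentation clock list had 3 higher and 3 lower of 23 tested, beside 7.22% and 8.98% of all genes. Its median log2 fold change was 0.01. In this list cdx1a, a caudal-type homeobox gene, fell by 1.1 (SE 0.18, adjusted p = 0.00101). Without the block 0 rose and 1 fell, and with 1 library left out 0 to 2 rose, the fewest without the set C mutant library.

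**Figure D3:**
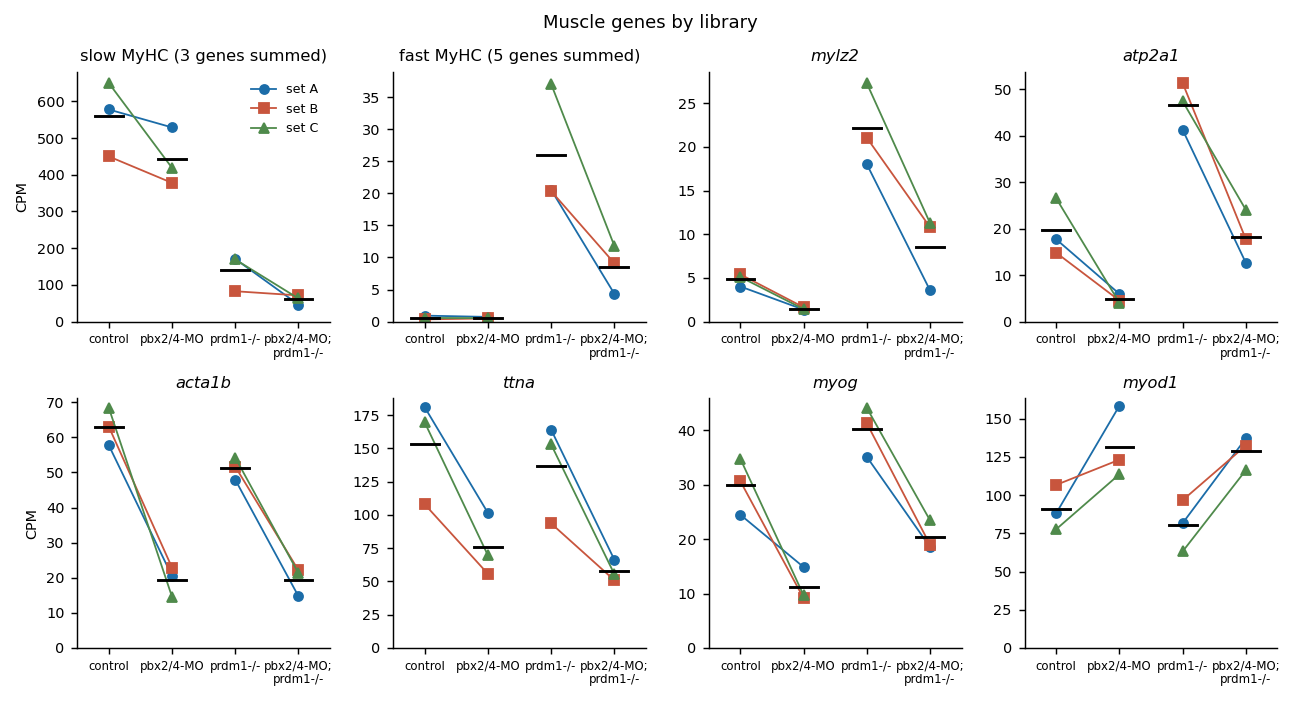
Normalised read counts (CPM) of muscle genes in all 12 libraries, drawn as points by column-name set, with lines within a prdm1 genotype and black bars for the mean of 3 libraries. The fast myosin heavy chain sum is near 0 in both prdm1+/+ groups, 20.4 CPM or more in prdm1-/- and 11.8 CPM or less in doubles, and myod1 is the 1 panel in which doubles lie above prdm1-/- libraries.

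Heart field genes changed in both directions. vmhc (ENSDARG00000079564), the ventricular myosin heavy chain, had 2.09, 5.79 and 8.23 CPM in mutants and 0.348, 0.21 and 0.229 CPM in doubles (log2 fold change -4.32, SE 0.52, adjusted p = 0.000105). Its mutant libraries differed widely and all lay above the doubles. tnnt2a, cardiac troponin T, fell by 2.17 (SE 0.27, adjusted p = 0.000133) and tbx5a, a transcription factor of the heart and fin fields, by 2.24 (SE 0.31, adjusted p = 0.000329). hand2 and tbx20, transcription factors of the same field, rose by 0.64 (SE 0.07, adjusted p = 5.54e-05, 0.0978 without the block) and 0.52 (SE 0.08, adjusted p = 0.000703). The heart list had 4 lower and 4 higher of 17 tested, beside 8.98% and 7.22% of all genes. Without the block 4 fell and 1 rose, beside 0.811% and 0.552% of all genes. Without the set A double library or the set C mutant library 2 rose.

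Of the 12 largest rises under the rule for named genes, 5 belonged to the list of the DNA damage response, which halts the cell cycle or starts apoptosis. ccng1 (ENSDARG00000076667), a cyclin gene induced by DNA damage, had 445, 1088 and 514 CPM against 2245, 2434 and 2333 CPM, a rise of 1.90 (SE 0.18, adjusted p = 1.38e-05). phlda3 (ENSDARG00000037804), an inhibitor of Akt, had 6.75, 17.8 and 6.11 CPM against 73.9, 66.0 and 57.5 CPM, a rise of 2.81 (SE 0.27, adjusted p = 1.66e-05). In both genes the mutant library of set B was the highest of the mutants and still below every double library.

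casp8, an initiator caspase, rose by 3.08 (SE 0.23, adjusted p = 2.31e-06), with 3.62, 14.1 and 5.31 CPM in mutants and 58.0, 74.5 and 44.2 CPM in doubles. bbc3, which encodes the pro-apoptotic protein Puma, rose by 2.79 (SE 0.37, adjusted p = 0.000206), gadd45aa by 2.38 (SE 0.31, adjusted p = 0.00021) and foxo3b by 2.08 (SE 0.27, adjusted p = 0.000179). The stress-induced sestrins sesn1 and sesn3 rose by 1.51 and 1.05 (adjusted p = 1.11e-06 and 1.67e-06). mdm2, a ubiquitin ligase gene, and cdkn1a, the p21 inhibitor of the cell cycle, were picked after their values were seen. They rose by 1.75 and 1.78 (adjusted p = 3.61e-05 and 0.00041).

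Of the 33 tested members of the DNA damage response list 18 rose and 1 fell, where 7.22% of all genes rose and 8.98% fell. The median log2 fold change of the list was 0.62. Without the block 13 rose and 1 fell, beside 0.552% and 0.811% of all genes. With 1 library left out 17 to 18 rose. The 1 that fell was tp63, which marks basal epidermis (log2 fold change -0.57, SE 0.06, adjusted p = 1.5e-05). Both groups had received a morpholino, of different targets and at doses that the labels do not give. The cause of these rises was not tested.

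Genes of DNA replication and the cell cycle fell together by small amounts. In their list 37 of 48 tested members fell and 0 rose, beside 8.98% and 7.22% of all genes. The median log2 fold change of the list was -0.39, beside 0.01 over all genes tested, and all 48 were below 0. mcm5 (ENSDARG00000019507), a subunit of the replicative helicase, had 385, 361 and 382 CPM in mutants and 204, 194 and 235 CPM in doubles (log2 fold change -0.84, SE 0.07, adjusted p = 8.37e-06). mcm3 fell by 0.62 (SE 0.06, adjusted p = 3.38e-05), mcm7 by 0.58 (SE 0.05, adjusted p = 5.13e-06, 0.16 without the block) and ccnd1, cyclin D1, by 0.36 (SE 0.04, adjusted p = 0.000115, 0.163 without the block). The 2 called without the block were mcm5 and mcm3, in a fit where 0.811% of all genes were lower. With 1 library left out 24 to 37 fell, the fewest without the set A double library, and 19 fell without all of set A. The summed level was 8125 to 8680 CPM in mutants and 5661 to 6878 CPM in doubles.

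**Figure D4:**
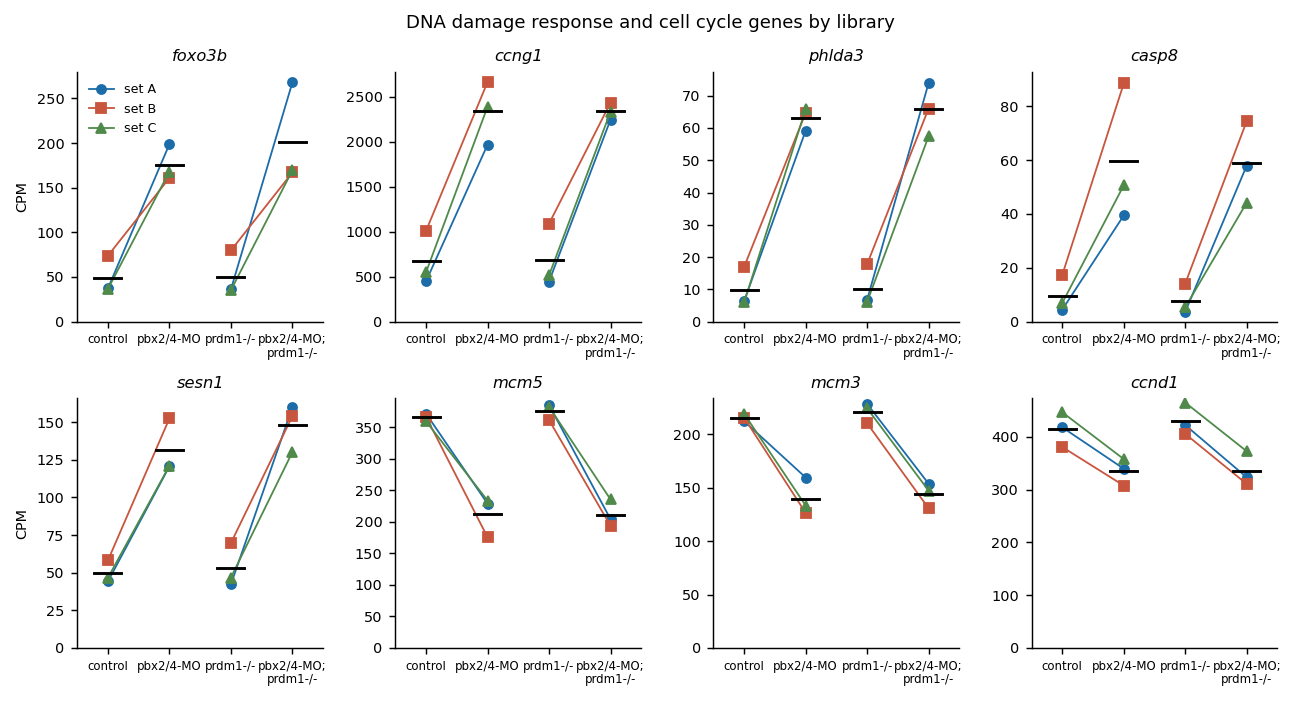
Normalised read counts (CPM) of 5 genes of the DNA damage response list and 3 genes of the cell cycle list in all 12 libraries, drawn as points by column-name set, with lines within a prdm1 genotype and black bars for the mean of 3 libraries. foxo3b, ccng1, phlda3, casp8 and sesn1 are higher in every double library than in any prdm1-/- library, with set B the highest of the libraries without pbx2/4 morpholinos, and mcm5, mcm3 and ccnd1 are lower.

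The 12 genes of largest rise that were called with and without the block included pbx2, casp8, phlda3, bbc3, gadd45aa and foxo3b. The other 6 were outside the DNA damage response list. atxn1b, named for the human ataxin-1 gene, rose most, by 3.75 (SE 0.38, adjusted p = 2.56e-05), with 2.01, 11.1 and 2.59 CPM in mutants and 86.8, 62.3 and 41.6 CPM in doubles. RBL2, named for the human retinoblastoma-like gene whose protein holds cells in quiescence, rose by 3.41 (SE 0.28, adjusted p = 4.96e-06), with 7.24, 18.7 and 5.71 CPM against 146, 103 and 64.8 CPM. rspo1, a secreted enhancer of Wnt signalling, rose by 3.58 (SE 0.30, adjusted p = 5.43e-06), with 0.563, 1.78 and 0.465 CPM against 11.7, 9.22 and 9.38 CPM. In each of these genes the set B mutant library was again the highest of the mutants, and no mutant library reached a double library. RNF14 (5 of 5), lnx1 and rd3 rose by 2.86, 2.73 and 2.24 (adjusted p = 1.14e-05, 5.16e-05 and 1.19e-05).

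Among the genes of largest fall under the same rule, egr2b, vmhc, cyp26b1, mafba and chrna1 are described above. The others were lcp1, mpz, fgf18b, CCDC80 (2 of 3), bhlhe22 and COMP. lcp1, the actin-bundling plastin of leukocytes, had 26.7, 10.7 and 22.7 CPM in mutants and 4.18, 1.05 and 4.75 CPM in doubles (log2 fold change -2.57, SE 0.16, adjusted p = 5.09e-07). mpz, a myelin protein gene in mammals, fell by 2.28 (SE 0.19, adjusted p = 5.6e-06), and fgf18b, a fibroblast growth factor, by 2.16 (SE 0.18, adjusted p = 4.96e-06), with 13.1, 16.1 and 14.5 CPM against 3.40, 2.62 and 3.55 CPM. CCDC80 (2 of 3) fell by 2.03 (SE 0.19, adjusted p = 1.39e-05), and bhlhe22, a bHLH factor of neurons, by 1.89 (SE 0.20, adjusted p = 4.47e-05). COMP, the cartilage matrix protein in mammals, fell from 85.9, 66.0 and 86.4 CPM to 28.5, 16.2 and 27.4 CPM, by 1.73 (SE 0.15, adjusted p = 7.89e-06). Each gene named here among the largest rises or falls stayed called with any 1 of the 6 libraries left out. These genes were picked as large changes called with and without the block, so the kept calls are not independent support.

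Among the 5 most abundant called genes in each direction, ccng1 is described above, and the others changed by 0.41 or less on the log2 scale. hspa8 and hsp90ab1, chaperones of unstressed cells, fell by 0.41 and 0.29 (adjusted p = 0.000152 and 0.000122, and 0.21 and 0.36 without the block). bactin2, a cytoplasmic actin, and hmga1a, a chromatin protein, fell by 0.22 and 0.21 (adjusted p = 0.000904 and 0.00214, and 0.577 and 0.284 without the block). eef2b fell by 0.18 (adjusted p in edgeR = 0.0154, 0.398 without the block) and kept its call in 3 of 6 fits with 1 library left out. Among the rises, krt4, a periderm keratin, and bactin1, another cytoplasmic actin, rose by 0.13 and 0.12 (adjusted p = 0.028 and 0.0475, and 0.777 and 0.776 without the block). zgc:161979 and hnrnpa0l, an RNA-binding protein gene, rose by 0.21 and 0.16 (adjusted p = 0.0106 and 0.012, and 0.632 and 0.895 without the block). The calls of krt4 and bactin1 were lost in 3 and 6 of 6 fits with 1 library left out, and those of zgc:161979 and hnrnpa0l in 2 of 6. Ribosomal protein genes served as a reference, with 1 higher and 3 lower of 68 tested, beside 7.22% and 8.98% of all genes. Their median log2 fold change was -0.01. Without the block none of them was called.

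Lists of other cell types followed, where 8.98% of all genes fell and 7.22% rose (0.811% and 0.552% without the block). Of 20 tested neural crest members 3 fell and 1 rose, and of 15 notochord and floor plate members 3 fell and 0 rose, among them foxa2, a floor plate gene (log2 fold change -0.43, adjusted p = 0.0029, 0.0788 without the block). In neither list was a member called without the block, and without either set C library the crest list had 1 lower. The epidermis and periderm list had 8 lower and 2 higher of 27 (1 and 0 without the block). With 1 library left out 5 to 8 were lower, the fewest without either set A library or the set C mutant library, and 0 to 2 higher. Its keratin gene krt18 fell from 1776, 1635 and 1845 CPM to 1104, 1256 and 1431 CPM (log2 change of -0.48, SE 0.08, adjusted p = 0.000874, 0.108 without the block). The blood and endothelium list had 7 lower and 2 higher of 27 (1 and 1 without the block). With 1 library left out 1 to 5 were lower, the fewest without the set C mutant library, and 1 was higher each time. Besides lcp1, its member aplnrb, an apelin receptor of endothelial and heart precursors, rose from 39.0, 33.6 and 32.5 CPM to 69.9, 57.2 and 68.9 CPM (log2 change of 0.91, SE 0.07, adjusted p = 3.32e-06).

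In the hatching gland list 3 of 12 rose and 0 fell, where 7.22% of all genes rose and 8.98% fell (0.552% and 0.811% without the block). Without the block 1 of the list rose, and without the set B double library 5 rose. One of the 3 is prdm1a, which the gland also expresses. The others were he1a and he1b, the hatching enzymes. he1a had 358, 257 and 448 CPM in mutants and 503, 336 and 647 CPM in doubles, so that the groups overlap and each set rose (log2 fold change 0.47, SE 0.07, adjusted p = 0.000284, 0.6 without the block). In the interferon and innate list 3 of 14 rose and 0 fell (2 and 0 without the block). These were RNF213, zgc:123282 and isg15, a ubiquitin-like protein induced by interferon, all at low levels. isg15 had 0.402, 1.11 and 0.0664 CPM against 3.66, 8.49 and 3.03 CPM (log2 change of 3.36, SE 0.60, adjusted p = 0.0018, 0.0671 without the block).

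The counts of the signalling lists stand beside 8.98% of all genes that fell and 7.22% that rose (0.811% and 0.552% without the block). The Wnt and Notch list had 9 lower and 8 higher of 43 tested (2 and 1 without the block). With 1 library left out 2 to 6 were higher, the fewest without the set A double library or the set C mutant library. The Notch ligands dla and dld fell by 0.58 and 0.38 (adjusted p = 0.000153 and 0.000402, the second 0.142 without the block). Another Notch ligand, jag1b, rose by 0.60 (adjusted p in edgeR = 0.0193, 0.16 without the block). It kept its call in 2 of 6 fits with 1 library left out. The FGF list had 4 lower and 2 higher of 24 (1 and 0 without the block, and 2 lower without the set A double or the set B mutant library). Its member dusp2, a phosphatase that acts on MAP kinases, fell by 1.48 (SE 0.26, adjusted p = 0.00158). The Hedgehog list, which covers the pathway that induces slow muscle, had 4 lower and 1 higher of 24 (0 and 1 without the block, and 2 lower without the set C double library). The 1 higher was prdm1a. eng2a, an engrailed gene of muscle pioneer cells and the midbrain-hindbrain boundary, fell by 0.72 (SE 0.14, adjusted p = 0.00298, 0.247 without the block).

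The same morpholinos were also given to prdm1+/+ embryos, a comparison that shares no library with the one above. There 3203 genes (17.7%) were called, 1400 higher (7.73%) and 1803 lower (9.95%), and 260 (1.44%) without the block. Called in both genotypes in the same direction were 2063 genes, which is 70.3% of the 2935 and 64.4% of the 3203, and 0 were called in opposite directions. Of the 2935 called in prdm1-/- embryos, 2908 (99.1%) had the same sign in prdm1+/+ embryos. Across all 18117 genes the log2 fold changes of the 2 comparisons correlated at r = 0.751. Genes are not independent replicates, and libraries of both comparisons share the 3 sets.

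The difference between the effects was tested directly with the interaction term, the effect in prdm1-/- minus that in prdm1+/+ embryos. edgeR called 0 genes (0%) at an adjusted p under 0.05, with 523 (2.89%) at an unadjusted p under 0.05. That share is below the 0.05 of genes that uniform p-values would give, so the 523 are not counted as differences. DESeq2 also called 0, with 193 at an unadjusted p under 0.05, and edgeR without the block 0 with 103. The smallest adjusted p was 0.408, for prdm1a, whose interaction was 0.49 (SE 0.08, unadjusted p = 2.25e-05). With 3 libraries a group these counts do not show that the effects are equal.

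Muscle genes gave examples of a fall called in prdm1-/- alone, none of which passed the test of the difference. The smyhc sum had a log2 fold change of -0.33 in prdm1+/+ embryos (adjusted p = 0.248) beside -1.19 in prdm1-/- embryos, and an interaction of -0.86 (SE 0.28, unadjusted p = 0.00834, adjusted p = 1). The fast myosin heavy chain sum had -0.05 beside -1.64, and an interaction of -1.59 (SE 0.62, unadjusted p = 0.0226, adjusted p = 1). It was near 0 CPM in both prdm1+/+ groups, so a fall could hardly be seen there. For mylz2, atp2a1, acta1b and myog, which controls do express, the fall was -1.72, -2.05, -1.73 and -1.42 in prdm1+/+ embryos and -1.42, -1.37, -1.41 and -0.98 in prdm1-/- embryos.

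egr2b, cyp26b1 and rx1 fell in both genotypes with pbx2/4 morpholinos. egr2b changed by -5.33 in prdm1+/+ and -4.97 in prdm1-/- embryos (interaction 0.37, SE 0.58) and cyp26b1 by -3.32 and -3.03 (interaction 0.29, SE 0.29). rx1 changed by -1.29 and -1.59 (interaction -0.30, SE 0.18). The list of forebrain, midbrain and eye genes had 12 lower and 4 higher of 30 in prdm1+/+ embryos beside 9 and 5 in prdm1-/- embryos. In the DNA damage response list 17 of 33 members rose in prdm1+/+ embryos beside 18 in prdm1-/- embryos. ccng1 rose by 1.88 and 1.90 (interaction 0.01, SE 0.25) and phlda3 by 2.81 in both. The cell cycle list had 37 lower of 48 in each genotype. Of all genes 9.95% fell and 7.73% rose in prdm1+/+ embryos, and 8.98% fell and 7.22% rose in prdm1-/- embryos.

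**Figure D5:**
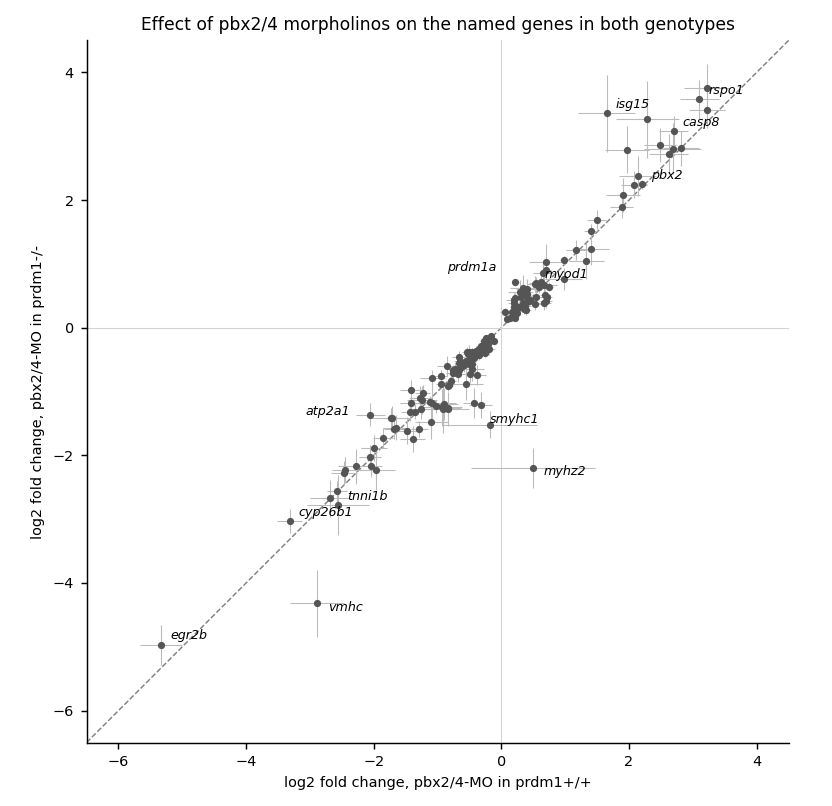
Log2 fold changes with pbx2/4 morpholinos of 170 genes named as targets, as largest changes or as leading members of a list, in prdm1+/+ embryos (horizontal) and in prdm1-/- embryos (vertical), with standard errors as bars and the line of equal effects dashed. Of these, 169 have the same sign in both genotypes, since myhz2, a fast myosin heavy chain near 0 CPM in prdm1+/+ embryos, is the exception, and smyhc1 and prdm1a lie off the dashed line.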

How the data were processed

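The members of the comparison and the gene lists were chosen with earlier results of these data known. The authors deposited a table of estimated counts for 31051 gene identifiers in 12 columns. They are not normalised, and 13.7% of the values were not whole (tolerance 1e-06), so they were rounded, where the design had assumed whole counts. A fractional value occurred in 22.5% of the genes tested. The submitters' processing notes list TopHat 1.4, edgeR and the Zv9 genome build. The rule for assigning reads to genes, and any use of strand, is not given in the sources read. Overlapping genes, antisense genes and near-identical copies may therefore share reads. No coordinates or sequences are reported. The column names give a group but no replicate number. In set A the group was read from a W or an M in the name and from the presence of pbx. The columns of sets B and C share sample numbers, so those libraries may come from the same RNA pools, in which case p-values measure technical spread in part. Within the prdm1 mutant group and within the double group, counts of any 2 libraries differed by a chi-square of at least 12.2 per gene. No libraries were merged. Between sets B and C the chi-square was 26.1 in mutants and 30.1 in doubles. Between sets A and C it was 12.2 and 17.5, and between sets A and B 25.4 and 24.9. Whether those libraries share pools was not tested.

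Genes were tested with edgeR 4.0.16 (R 4.3.3) by its quasi-likelihood method after TMM scaling and filterByExpr by group, on all 12 libraries in 1 model of the 4 groups with the column-name set as a block (6 residual degrees of freedom). Benjamini-Hochberg adjustment ran over 18117 genes, and a gene was called at an adjusted p under 0.05. Standard errors (SE) were taken as the size of the log2 fold change over the root of the F statistic. CPM use TMM-scaled library sizes. Before TMM scaling, 1 count was 0.058 to 0.107 CPM in the 6 libraries. Within-set log2 values used a prior count of 0.5. Deviations from group means correlated at 0.419 to 0.635 in the 18 pairs of libraries of the same set. In the 36 pairs of different sets they correlated at -0.462 to -0.00122. Deviations sum to 0 within a group, so this second range is negative in part by construction. The pairing rests on names and on the first range, not on labels. The biological coefficient of variation was 0.0754 with the block and 0.212 without it.

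There were 26 lists with 832 names, of which 758 matched an identifier. Named genes were prdm1a, prdm1b, pbx2 and pbx4, then in each direction the 12 genes of largest log2 fold change among those called with and without the block, changed in the same direction in each set, with at least 5 CPM in the higher group and a gene name. To these came up to 6 called members of smallest p per list and direction, list members whose call differed between the prdm1 genotypes, and the 5 called genes of highest mean CPM in each direction. Any other gene is said to have been picked after its values were seen. Most named genes were picked as called, so a gap between their groups is not independent of that choice. The share of all genes with such a gap is not given here. The fit was tested on simulated data. Alternatives were no block, DESeq2 1.42.0, size factors of DESeq2 in edgeR, other filters, the 6 libraries alone, and leaving out each library or set. The authors' own tables of comparisons against control were not used. Results on some genes are not reported here.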

Additional observations from a re-analysis of the deposited data

How the results depend on the processing

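Without the replicate block 247 genes were called in place of 2935, 100 higher and 147 lower, and 65 of the 191 called genes that the rule for named genes picked kept their call. With 1 library left out, 1674 to 2366 genes were called, 644 to 1037 higher and 1030 to 1329 lower. Without set A 950 were called (338 higher, 612 lower), and without set C 1449 (556 higher, 893 lower). DESeq2 called 804 genes higher and 1318 lower, so that 37.9% of its calls were higher beside 44.6% in the edgeR fit, and without set A this was 35.6%. The counts were within 1.5 times the reported ones with size factors of DESeq2 in edgeR (2929), no filter (2853), a filter of 1 CPM in 3 libraries (2935), the 6 libraries alone (2500) and without set B (2567). The interaction gave 0 calls in every fit that had it. The smyhc sum fell by 0.866 on the log2 scale without set A (adjusted p = 0.0537), and with 1 library left out its log2 fold change ranged from -1.50 to -0.93. The fast myosin heavy chain sum ranged from -1.85 to -1.38 and was called under each alternative run. None of those 191 genes changed direction under any alternative run that gave them a value (188 in DESeq2). They were picked as called and the alternatives reuse the same libraries, so the kept direction is not independent support. The cause of the differences between the fits was not tested. Low counts limit genes such as vmhc, egr2b, isg15 and tnni1b, for which 1 count was 0.058 to 0.107 CPM before TMM scaling.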

Other observations

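Some identifiers that carry no gene name in the deposited table changed as much as the named ones. The following were picked after their values were seen. si:ch211-39a7.1 (ENSDARG00000037427), paired with the symbol chrna11 of a nicotinic acetylcholine receptor subunit in a reference table of gene names, had 0, 0 and 0.0664 CPM in prdm1 mutants of sets A, B and C and 6.45, 12.1 and 2 CPM in doubles. The 3 mutant libraries held 1 count and the 3 double libraries 224, a ratio of 212 after scaling, with an exact 95% interval from 37.7 to 8423 that covers counting error only. In edgeR its log2 fold change was 7.30 (SE 0.54, adjusted p = 2.31e-06). It rose in prdm1+/+ embryos too (edgeR log2 fold change 5.68, adjusted p = 6.42e-06). The interaction was 1.61 (unadjusted p in edgeR = 0.254).

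A group of identifiers around a collagen gene fell together. col7a1l (ENSDARG00000069692), a collagen of the type VII family, had 180, 151 and 162 CPM in mutants and 55.0, 45.6 and 48.6 CPM in doubles (log2 fold change -1.72, SE 0.10, edgeR adjusted p = 5.09e-07). The identifiers si:dkey-117n7.2, si:dkey-117n7.3, si:dkey-117n7.4 and si:dkey-117n7.5 come from 1 clone, and the first of them carries the symbol col7a1l in the same reference table. They fell by 1.58, 1.5, 2.01 and 1.70 on the log2 scale, with adjusted p-values of 6.67e-05, 0.000142, 8.26e-06 and 1.45e-05. The 5 may be fragments of 1 gene and are not independent, and their fall in prdm1+/+ embryos was -1.71, -1.69, -1.56, -2 and -1.90.

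wu:fc01d11 (ENSDARG00000088874) fell in both genotypes, by unequal values. It had 43.1, 38.5 and 50.6 CPM in mutants and 12, 3.46 and 12.8 CPM in doubles (log2 fold change -2.22, SE 0.20, adjusted p = 9.61e-06), beside -0.86 in prdm1+/+ embryos (adjusted p = 0.00319). The interaction had an unadjusted p of 0.000147 and did not pass the adjustment over all genes.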
